A study of Mus musculus with 16 samples.

Results

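The genes described here encode the ligands and receptors of the tumor necrosis factor (TNF) superfamily. They were taken as every gene whose annotated symbol begins with Tnfsf or Tnfrsf and a digit, together with Fas, Fasl, Tnf, Lta, Ltb, Ltbr, Cd27, Cd70, Ngfr and Eda, while CD40 and its ligand were left out. A gene was included when at least 1 probe set of the array was annotated to it alone, and the probe set with the highest mean over the 16 arrays represented it. By this rule 37 members were found among 18193 genes. Tnfsf13os, an opposite-strand transcript at the Tnfsf13 gene, is among the 37 because its symbol matches, although it encodes neither a ligand nor a receptor. Tnfsf12, Tnfsf13, Tnfsf15, Tnfsf18 and Tnfrsf26 are not among them, because no probe set was annotated to any of these alone.

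Ligands of the TNF superfamily are mostly membrane-bound trimers that cluster their receptors on a neighbouring cell, and some are also shed. Receptors with a cytoplasmic death domain, such as Fas, can assemble a complex that activates caspase-8, many of the others bind TRAF adaptors and activate NF-kappa B, and a few are decoys that bind a ligand without such a signal. In tumors the family is known for costimulation of T cells through receptors such as 4-1BB, OX40 and GITR, for killing of target cells through Fas ligand and TRAIL, and for the inflammatory output of myeloid cells through TNF. CD40 itself is a receptor of this superfamily on antigen-presenting cells, and its agonist antibody was one of the treatments.

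RNA came from PDA30364 tumors, a single C57BL/6-based pancreatic ductal adenocarcinoma line made from a mouse model of the disease, grown under the skin of the flank of C57BL/6-Ly5.1 mice that were 6 to 12 weeks old. The groups were GEM/anti-CD40 Ab, anti-CD40 Ab, GEM and control, with 4 arrays in each of the 4 groups. GEM (gemcitabine, a nucleoside analog) was dosed at 120 mg/kg 3 times, on days 1, 5 and 12 of treatment, and mice without it received vehicle. The agonist anti-CD40 Ab of mouse IgG1 isotype was injected on days 3, 4, 6 and 14 of treatment. As control antibody, the paper's methods name isotype IgG for its tumor experiments. The paper does not state for this experiment that every mouse without the agonist, the control mice included, received such an IgG. Whole tumor pieces were taken on day 22 or 23 after inoculation. The titles of GEM replicates 3 and 4 show 1 shared animal number, so the n of 4 for GEM counts arrays and may not count animals.

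The values are log2 intensities after RMA, a scale on which a difference of 1 is a 2-fold difference in intensity, and levels of different probe sets cannot be set against each other. Ductal tumor epithelium markers averaged between 11.8 and 12.4 on all 16 arrays. Skin keratinocyte markers averaged 6.82 in anti-CD40 Ab replicate 2 and 8.61 in control replicate 2, against at most 5.05 on the other 14 arrays, and skeletal muscle markers averaged 12.6 in GEM/anti-CD40 Ab replicate 4, against at most 8.30 elsewhere. In whole tumor RNA, fewer cells of a type and less RNA per cell cannot be told apart. The 5 pairwise comparisons reuse the same 16 arrays, so those against control share their 4 control arrays.

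Sequences before the transcription start are given for the only member that passed the test, Tnfrsf9, and for Fas, Tnfrsf1b and Tnfsf10, which are among the 6 members with the lowest p for the main effect of anti-CD40 Ab. Tnfrsf22 and Tnfrsf23 are also among the 6 but are not printed. No RefSeq promoter entry matched Tnfrsf22. The Tnfrsf23 window lies before a start inside the annotated gene and held neither motif searched below. RefSeq promoter entries (build GRCm38.p6) matched 30 of the 37 members, with 34 start sites. The 250 bases before each start were searched on both strands for the STAT-binding GAS motif (TTCNNNGAA) and the AP-1 motif (TGANTCA). The lines run 5′ to 3′ towards the start, with matches in capitals, and the line for Fas stops where the annotated gene begins.
Tnfrsf9, upstream start, chr4:150919905-150920154, plus strand: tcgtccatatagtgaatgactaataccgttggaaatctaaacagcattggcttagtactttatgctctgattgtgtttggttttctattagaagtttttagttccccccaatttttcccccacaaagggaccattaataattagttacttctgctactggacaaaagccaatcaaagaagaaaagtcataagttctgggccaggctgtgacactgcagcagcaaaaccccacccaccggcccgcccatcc
Tnfrsf9, downstream start inside the annotated gene, chr4:150927749-150927998, plus strand: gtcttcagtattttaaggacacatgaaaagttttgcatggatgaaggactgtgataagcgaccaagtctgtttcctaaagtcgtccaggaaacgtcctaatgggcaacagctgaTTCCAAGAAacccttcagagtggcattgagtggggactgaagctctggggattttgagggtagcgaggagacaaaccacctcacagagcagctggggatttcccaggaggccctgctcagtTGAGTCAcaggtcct
Fas, chr19:34290409-34290646, plus strand: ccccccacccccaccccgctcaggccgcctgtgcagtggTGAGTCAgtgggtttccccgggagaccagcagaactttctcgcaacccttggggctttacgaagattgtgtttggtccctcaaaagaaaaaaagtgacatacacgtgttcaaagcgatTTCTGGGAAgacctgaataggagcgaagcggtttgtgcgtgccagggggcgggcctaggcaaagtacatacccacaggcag
Tnfrsf1b, chr4:145246871-145247120, minus strand: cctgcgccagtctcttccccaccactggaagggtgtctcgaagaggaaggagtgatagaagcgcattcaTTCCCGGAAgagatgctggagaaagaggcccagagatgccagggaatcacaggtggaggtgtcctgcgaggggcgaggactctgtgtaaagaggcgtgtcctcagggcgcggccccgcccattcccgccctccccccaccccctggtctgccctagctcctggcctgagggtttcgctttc
Tnfsf10, chr3:27316827-27317076, plus strand: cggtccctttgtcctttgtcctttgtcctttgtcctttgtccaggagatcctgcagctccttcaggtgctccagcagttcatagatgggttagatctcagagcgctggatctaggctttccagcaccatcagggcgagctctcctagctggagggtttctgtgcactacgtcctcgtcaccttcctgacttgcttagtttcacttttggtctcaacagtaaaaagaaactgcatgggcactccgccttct

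The downstream start of Tnfrsf9 held a GAS match (TTCCAAGAA) 136 to 128 bases and an AP-1 match (TGAGTCA) 15 to 9 bases before the start, whereas neither motif was found before its upstream start. Fas held a GAS match (TTCTGGGAA) 93 to 85 bases and an AP-1 match (TGAGTCA) 211 to 205 bases before its start. Tnfrsf1b held a GAS match (TTCCCGGAA) 181 to 173 bases before its start. The Tnfsf10 window held no match, nor did that of Tnfrsf23, and no printed match overlapped another. Of the 34 member promoters, 8 held a GAS match, against 7.02% of 32851 promoters of the same length. AP-1 was found in 5 of 34, against 6.75%. A match is a stretch of letters and was not tested as a binding site.

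Across the family, the tumors given anti-CD40 Ab had higher signals of the costimulatory receptor 4-1BB (Tnfrsf9), which alone passed the test. Signals of TRAIL with its decoy receptors, Fas and TNFR2 (Tnfrsf1b) were higher in mean but did not pass. For Fas and TNFR2 the difference in mean was larger in tumors that also had GEM, but the interaction of the 2 agents did not pass (limma adjusted p = 0.890 for each). Without GEM, their log2 changes against control were 0.18 and 0.13, with overlap. GEM/anti-CD40 Ab against GEM gave 0.88 and 0.66, and GEM against control gave -0.31 and -0.12. The second probe set of Tnfrsf1b gave 0.25 for GEM/anti-CD40 Ab against GEM (limma adjusted p = 0.509). The main effect of anti-CD40 Ab is the mean of both groups given the antibody, with and without GEM, minus the mean of both groups without it. With limma and Benjamini-Hochberg adjustment over all 45037 probe sets, 1 of 37 members was called at an adjusted p under 0.05, against 0.599% of genes. At an unadjusted p under 0.05, 12 of 37 members were higher, against 7.53% of genes, and 1 of 37 was lower, against 7.5% of genes. The median log2 change of the members was 0.08 and that of all genes -0.02, with 23 of 37 members above 0 against 41.3% of genes. The median fell to 0.04 without GEM/anti-CD40 Ab replicate 2. When 1 array at a time was left out, 10 to 14 members were higher at an unadjusted p under 0.05, against 6.23% to 8.22% of genes. When the 3 arrays with skin or muscle genes were left out together, 15 were, against 7.62% of genes.

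**Figure D1:**
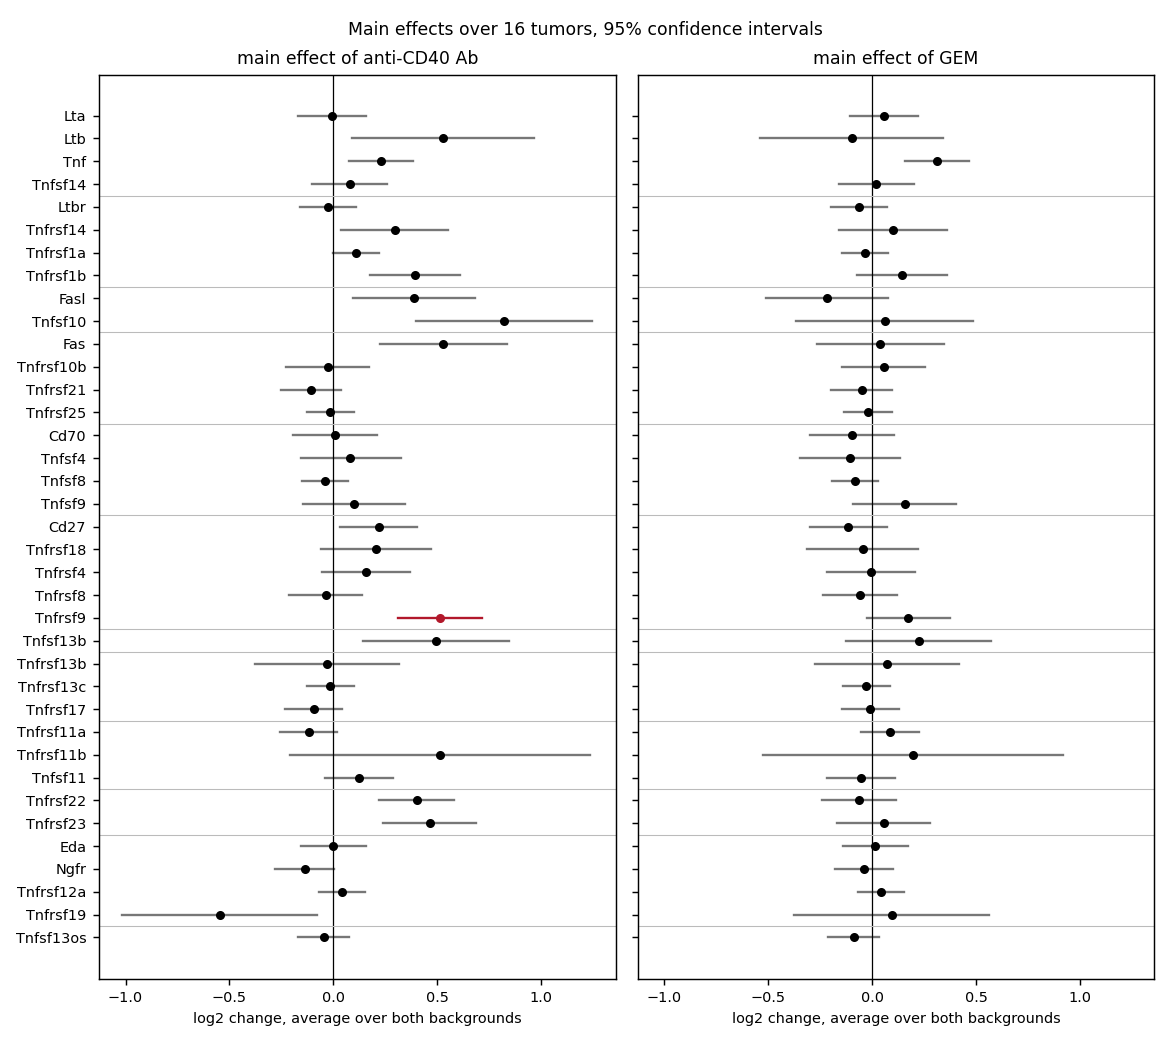
Log2 change (horizontal axis) of each of the 37 members, with its 95% confidence interval, for the main effect of anti-CD40 Ab on the left and of GEM on the right. Members are ordered by role, with grey lines between roles, and red marks an adjusted p under 0.05, which only Tnfrsf9 reached (log2 change 0.51).

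The addition of anti-CD40 Ab to GEM separated more members than any other of the 5 pairwise comparisons. GEM/anti-CD40 Ab tumors were above GEM tumors, with no overlap between the groups, for 12 members, against 3.69% of genes. These were Tnfrsf9, Fas, Fasl, Tnfsf10, Tnf, Ltb, Tnfrsf1b, Tnfrsf14, Tnfsf13b, Tnfrsf23, Cd27 and Tnfsf11. By contrast, 0 of 37 members lay wholly below, against 3.46% of genes. None passed the adjusted test, as was so for all genes (0%), and the smallest adjusted p was 0.201. At an unadjusted p under 0.05, 14 of 37 members were higher, against 6.67% of genes, and 0 of 37 lower, against 6.1% of genes. The median log2 change was 0.16 in the members and -0.02 in all genes, and 28 of 37 members were above 0 against 43.1% of genes. With 1 array at a time left out, 12 to 15 members were higher at an unadjusted p under 0.05, against 5.03% to 8.18% of genes.

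Set against control, GEM/anti-CD40 Ab tumors were higher without overlap for Tnf, Tnfrsf1b, Tnfrsf9, Tnfrsf22 and Tnfrsf23, 5 of 37 members against 3% of genes. No member passed the adjusted test, against 0.0275% of genes, and the smallest adjusted p was 0.151, for Tnfrsf9. At an unadjusted p under 0.05, 8 of 37 were higher (5.86% of genes) and 0 of 37 lower (5.35% of genes). That count of 8 fell to 5 without control replicate 2, without control replicate 3 or without GEM/anti-CD40 Ab replicate 1. The share of genes fell with it, to 4.7%, 4.23% and 3.94%. The median log2 change was 0.07 in the members and -0.02 in all genes.

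Each agent alone separated fewer members from control. In anti-CD40 Ab tumors Tnfrsf9, Tnfrsf22 and Tnfrsf23 lay above every control tumor, 3 of 37 members against 1.66% of genes, and at an unadjusted p under 0.05 4 of 37 were higher (3.52% of genes) and 1 of 37 lower (3.74%). The count of 4 was 2 without the 3 arrays with skin or muscle genes, against 4.31% of genes. In GEM tumors only Tnf lay above every control tumor, 1 of 37 against 1.83% of genes, and at an unadjusted p under 0.05 1 of 37 was higher (3.34% of genes) and 3 of 37 lower (2.97%). The 1 higher member was lost without GEM replicate 1 or 3 or control replicate 2, with a count of 0, against 2.71%, 2.8% and 3.29% of genes. The members' median log2 change was 0.02 for anti-CD40 Ab and -0.09 for GEM against control, beside -0.02 and 0.00 over all genes. The median for anti-CD40 Ab turned to -0.03 without anti-CD40 Ab replicate 4 and to -0.005 with arrays scaled to the same 75th percentile. In both comparisons 0% of genes and none of the members passed the adjusted test. GEM/anti-CD40 Ab tumors were above anti-CD40 Ab tumors without overlap for Tnf only, 1 of 37 against 1.31% of genes, and again 0% of genes passed. At an unadjusted p under 0.05, 4 of 37 members were higher there, against 2.19% of genes. That count was 2 without anti-CD40 Ab replicate 1, 2 or 3 or without GEM/anti-CD40 Ab replicate 1, against 1.51% to 2.46% of genes. It was 6 without GEM/anti-CD40 Ab replicate 3, against 3.71% of genes.

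**Figure D2:**
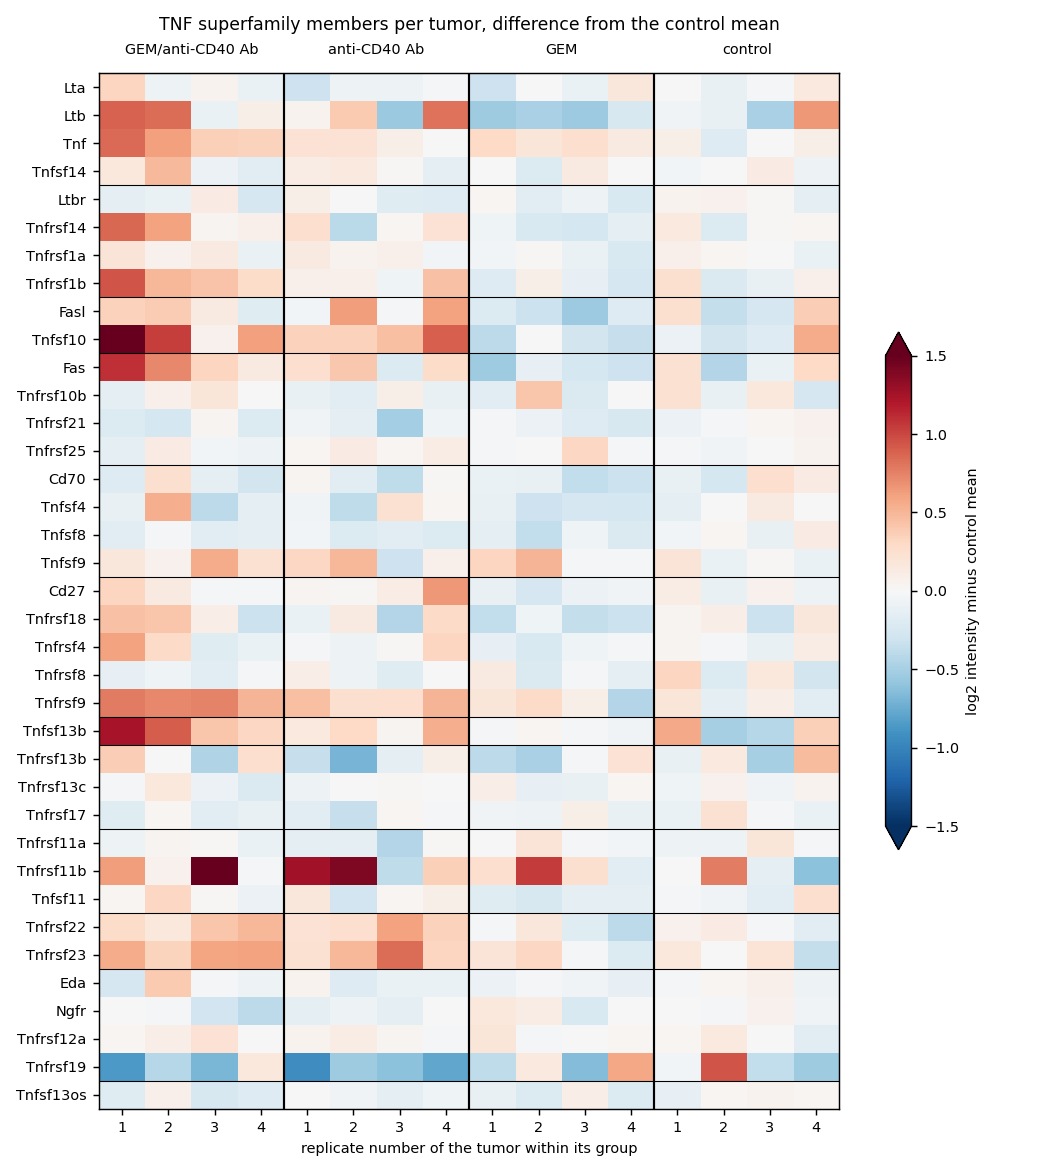
Heat map of the 37 members (rows, ordered by role with lines between roles) in the 16 tumors (columns, grouped by treatment), coloured by log2 intensity minus the control mean. Colours end at 1.5 on either side. GEM/anti-CD40 Ab replicates 1 and 2 hold the most red, with mean deviations over all members of 0.24 and 0.22 from each member's mean over the 16 arrays, and the 4 GEM tumors lie between -0.15 and -0.05.

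Among the 5 costimulatory receptors, Tnfrsf9 was the only one to pass. Tnfrsf9 encodes 4-1BB (CD137), which appears on activated T and NK cells and sustains their division and survival. Its log2 intensity was 9.19, 9.13, 9.16 and 8.93 in GEM/anti-CD40 Ab tumors, 8.87, 8.66, 8.67 and 8.93 in anti-CD40 Ab tumors, 8.6, 8.70, 8.50 and 7.98 in GEM tumors, and 8.6, 8.28, 8.52 and 8.26 in control tumors. All 8 tumors given the antibody lay above all 4 control tumors, and the only overlap with the 8 tumors not given it came from GEM replicate 2, at 8.70, above anti-CD40 Ab replicates 2 and 3. The group means were 9.10 ± 0.12, 8.78 ± 0.14, 8.45 ± 0.32 and 8.42 ± 0.17 (SD, n = 4 each) in GEM/anti-CD40 Ab, anti-CD40 Ab, GEM and control tumors. Tnfrsf9 rose with the antibody by 0.51 on the log2 scale (SE 0.09, 95% confidence interval 0.31 to 0.71, limma adjusted p = 0.0411).

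The Tnfrsf9 call was close to the threshold. A second probe set of the gene, at 7.6 ± 0.16 and 7.18 ± 0.12 in GEM/anti-CD40 Ab and anti-CD40 Ab tumors against 6.66 ± 0.27 and 6.61 ± 0.30 in GEM and control tumors (SD, n = 4 each), gave a log2 change of 0.76 (limma adjusted p = 0.0172). The dimmest of its 3 probe sets gave 0.08 (adjusted p = 0.678). Leaving out 1 array moved the log2 change of the representative probe set between 0.44 and 0.56 and its adjusted p between 0.026 and 0.102. The adjusted p was above the threshold without control replicate 2 (0.0846), 3 (0.0872) or 4 (0.0502), and without anti-CD40 Ab replicate 1 (0.0786), 3 (0.0615) or 4 (0.102). It was above it also without GEM replicate 1 (0.0776) or 3 (0.0872), without GEM/anti-CD40 Ab replicate 1 (0.0617) or 2 (0.0731), and at 0.0767 without the 3 arrays with skin or muscle genes. With GEM replicates 3 and 4 averaged into 1 sample it was 0.0598, with the replicate number as a block 0.0522, and with arrays scaled to the same 75th percentile 0.0508.

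Against control, the log2 change of Tnfrsf9 was 0.69 (SE 0.10, adjusted p = 0.151) in GEM/anti-CD40 Ab tumors and 0.37 (SE 0.10, adjusted p = 0.807) in anti-CD40 Ab tumors. Both differences separated the groups, with an exact two-sided permutation p of 0.0286, the smallest that 4 against 4 allow. GEM/anti-CD40 Ab tumors were also above anti-CD40 Ab tumors in mean by 0.32 (SE 0.09, limma adjusted p = 0.937), with 8.93 shared by the lowest of the one group and the highest of the other. GEM alone gave 0.03 against control (95% confidence interval -0.32 to 0.38), a value whose sign changed with the array left out (-0.055 to 0.185). The ligand of the receptor, Tnfsf9 (4-1BBL), had 9.15, 9.05, 9.54 and 9.21 in GEM/anti-CD40 Ab tumors, 9.29, 9.48, 8.67 and 9.06 in anti-CD40 Ab tumors, 9.31, 9.49, 8.97 and 8.96 in GEM tumors, and 9.17, 8.88, 9.0 and 8.88 in control tumors. These groups overlapped, and the main effect of anti-CD40 Ab on the ligand was 0.10 (95% confidence interval -0.15 to 0.35).

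None of the other 4 costimulatory receptors passed. Tnfrsf18 (GITR), a receptor of regulatory and activated T cells, had 6.76, 6.73, 6.41 and 5.99 in GEM/anti-CD40 Ab tumors, 6.22, 6.45, 5.87 and 6.60 in anti-CD40 Ab tumors, 5.94, 6.25, 5.96 and 5.99 in GEM tumors, and 6.36, 6.42, 5.99 and 6.49 in control tumors. The GEM tumors were low apart from replicate 2, and their range overlapped with every other group. Against control the change in GEM tumors was -0.28 (SE 0.12, limma adjusted p = 0.852). Tnfrsf4 (OX40) had main effects of 0.16 (anti-CD40 Ab) and -0.01 (GEM), Tnfrsf8 (CD30) of -0.04 and -0.06. Cd27, the receptor of CD70, reached 0.22 for anti-CD40 Ab (SE 0.09, adjusted p = 0.305), and its signal of 3.02 to 3.35 in group means was dim.

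None of the 4 costimulatory ligands passed in any comparison. Tnfsf4 (OX40L), which antigen-presenting cells display to OX40, had 5.78, 5.58, 5.63 and 5.62 in GEM tumors against 5.75, 5.89, 6.02 and 5.89 in control tumors. GEM replicate 1 overlapped with control replicate 1, and the difference was -0.24 (SE 0.08, limma adjusted p = 0.786). In GEM/anti-CD40 Ab tumors it had 5.78, 6.43, 5.49 and 5.75, and in anti-CD40 Ab tumors 5.83, 5.51, 6.11 and 5.92, the widest ranges of the 4 groups. Tnfsf8 (CD30L) had 5.14, 5.29, 5.13 and 5.17 in GEM/anti-CD40 Ab tumors, 5.26, 5.10, 5.15 and 5.10 in anti-CD40 Ab tumors, 5.16, 4.94, 5.24 and 5.09 in GEM tumors, and 5.26, 5.34, 5.19 and 5.43 in control tumors. Its mean was highest in control tumors, whose range overlapped with that of each treated group, and GEM against control gave -0.20 (SE 0.08, limma adjusted p = 0.852). Cd70 had main effects of 0.01 (anti-CD40 Ab) and -0.10 (GEM).

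**Figure D3:**
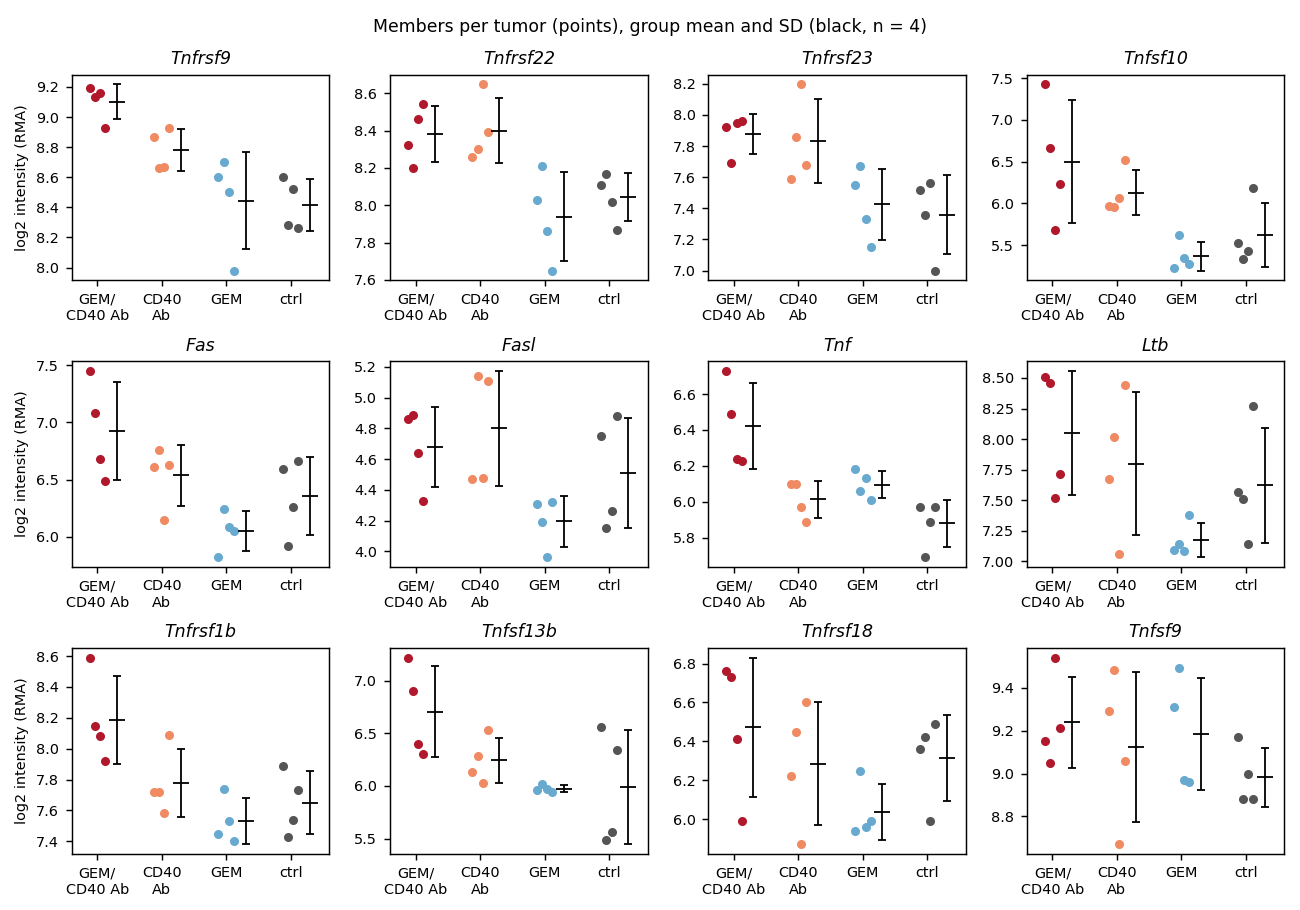
Log2 intensity (vertical axis, a scale of its own in each panel) of 12 members in each tumor, with GEM/anti-CD40 Ab, anti-CD40 Ab, GEM and control tumors from left to right. Coloured points are tumors, black bars the group mean ± SD (n = 4). Tnfrsf9, Tnfrsf22 and Tnfrsf23 of all 8 tumors given the antibody lie above all 4 control tumors.

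The death ligand TRAIL and its decoy receptors made up 3 of the 6 lowest p for the main effect of anti-CD40 Ab. Tnfsf10 encodes TRAIL, which triggers apoptosis through Tnfrsf10b in mice. It had 7.43, 6.66, 5.68 and 6.23 in GEM/anti-CD40 Ab tumors, 5.97, 5.96, 6.07 and 6.52 in anti-CD40 Ab tumors, 5.23, 5.62, 5.35 and 5.28 in GEM tumors, and 5.53, 5.34, 5.43 and 6.18 in control tumors. Every tumor given the antibody was above every GEM tumor, and control replicate 4 was the only other tumor within the range of the treated ones. The main effect was 0.82 (SE 0.20, 95% confidence interval 0.40 to 1.25, limma adjusted p = 0.0814), the greatest among the 37 members. Without GEM/anti-CD40 Ab replicate 3 it was 0.96 with an adjusted p of 0.0172. The dimmest of its 3 probe sets gave 0.55 (adjusted p = 0.0434) and the remaining one 0.74 (adjusted p = 0.0678).

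GEM/anti-CD40 Ab exceeded GEM alone by 1.13 for Tnfsf10 (SE 0.31, limma adjusted p = 0.258), with means of 6.50 ± 0.74 and 5.37 ± 0.17 (SD, n = 4 each). The apoptosis-inducing receptor Tnfrsf10b had 7.23, 7.44, 7.55 and 7.36 in GEM/anti-CD40 Ab tumors, 7.26, 7.21, 7.45 and 7.25 in anti-CD40 Ab tumors, 7.21, 7.78, 7.15 and 7.36 in GEM tumors, and 7.59, 7.25, 7.52 and 7.11 in control tumors. All 4 groups overlapped, and its main effect of anti-CD40 Ab was -0.03 (95% confidence interval -0.23 to 0.17).

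Tnfrsf22 and Tnfrsf23 encode mouse decoy receptors, which bind TRAIL without a death domain. Tnfrsf22 had 8.32, 8.2, 8.46 and 8.54 in GEM/anti-CD40 Ab tumors, 8.26, 8.30, 8.65 and 8.39 in anti-CD40 Ab tumors, 8.03, 8.21, 7.86 and 7.65 in GEM tumors, and 8.11, 8.17, 8.02 and 7.87 in control tumors. Tnfrsf23 had 7.92, 7.69, 7.95 and 7.96 in GEM/anti-CD40 Ab tumors, 7.59, 7.86, 8.2 and 7.68 in anti-CD40 Ab tumors, 7.55, 7.67, 7.33 and 7.15 in GEM tumors, and 7.52, 7.36, 7.56 and 7.0 in control tumors. For both genes all tumors given the antibody were above all control tumors, and GEM replicate 2 was the only GEM tumor to reach above any of the 8. The main effects were 0.40 (SE 0.08, limma adjusted p = 0.0562) for Tnfrsf22 and 0.46 (SE 0.11, adjusted p = 0.0662) for Tnfrsf23.

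Both genes passed when the probe sets below the median intensity of 5.62 were left out before the fit, with adjusted p of 0.0377 and 0.0446. Tnfrsf22 passed also without GEM replicate 2 (0.040) and without GEM/anti-CD40 Ab replicate 3 (0.0467). The 2 genes are neighbouring, similar copies on chromosome 7, so probes of the one may read the other. A probe set annotated to both gave 0.42 (adjusted p = 0.0619), and the 2 further probe sets of Tnfrsf22 gave 0.36 (adjusted p = 0.0551) and 0.26 (adjusted p = 0.304). GEM/anti-CD40 Ab against anti-CD40 Ab gave -0.02 for Tnfrsf22 and 0.05 for Tnfrsf23, so the means of the 2 groups given the antibody lay close together.

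Fas, the death receptor of Fas ligand, had 7.45, 7.08, 6.68 and 6.49 in GEM/anti-CD40 Ab tumors, 6.61, 6.76, 6.15 and 6.63 in anti-CD40 Ab tumors, 5.82, 6.24, 6.09 and 6.05 in GEM tumors, and 6.59, 5.92, 6.26 and 6.66 in control tumors. GEM/anti-CD40 Ab tumors were all above GEM tumors and overlapped with the other groups. Their means of 6.93 ± 0.43 and 6.05 ± 0.17 (SD, n = 4 each) differed by 0.88 (SE 0.19, limma adjusted p = 0.212), and the main effect of anti-CD40 Ab was 0.53 (SE 0.14, adjusted p = 0.122). In the absence of GEM, anti-CD40 Ab against control gave 0.18 (95% confidence interval -0.23 to 0.59).

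Its ligand Fasl, a product of cytotoxic T and NK cells, had 4.86, 4.89, 4.64 and 4.33 in GEM/anti-CD40 Ab tumors, 4.47, 5.14, 4.48 and 5.11 in anti-CD40 Ab tumors, 4.31, 4.19, 3.96 and 4.32 in GEM tumors, and 4.75, 4.15, 4.26 and 4.88 in control tumors. Every tumor given the antibody was above every GEM tumor, the closest being 4.33 against 4.32, while control tumors spanned both. The main effect was 0.39 for anti-CD40 Ab (SE 0.14, limma adjusted p = 0.244) and -0.22 for GEM (SE 0.14, adjusted p = 0.925). The other probe set of Fasl gave 0.91 for anti-CD40 Ab (adjusted p = 0.0602). The remaining death receptors, Tnfrsf21 (DR6) and Tnfrsf25 (DR3), had main effects of -0.11 and -0.01 for anti-CD40 Ab and of -0.05 and -0.02 for GEM.

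Tnf was the member with the lowest p for the main effect of GEM, and it was higher with each agent in mean. Tnf, an inflammatory cytokine made chiefly by macrophages and T cells, had 6.73, 6.49, 6.24 and 6.23 in GEM/anti-CD40 Ab tumors, 6.10, 6.10, 5.97 and 5.89 in anti-CD40 Ab tumors, 6.18, 6.06, 6.13 and 6.01 in GEM tumors, and 5.97, 5.69, 5.89 and 5.97 in control tumors. The GEM/anti-CD40 Ab tumors were above all 12 others, and GEM tumors were above all control tumors. The means were 6.42 ± 0.24, 6.02 ± 0.10, 6.10 ± 0.08 and 5.88 ± 0.13 (SD, n = 4 each) in GEM/anti-CD40 Ab, anti-CD40 Ab, GEM and control tumors. The main effect of GEM on Tnf was 0.31 (SE 0.07, 95% confidence interval 0.16 to 0.47, limma adjusted p = 0.678) and that of anti-CD40 Ab 0.23 (SE 0.07, adjusted p = 0.184). GEM/anti-CD40 Ab exceeded control by 0.54 (SE 0.12, limma adjusted p = 0.372, exact permutation p = 0.0286).

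Over the family the main effect of GEM had a median of -0.01 in the members and 0.00 in all genes, with 18 of 37 above 0 against 51.8% of genes. No member was called, against 0.0055% of genes, and Tnf alone, 1 of 37, had an unadjusted p under 0.05, against 5.53% of genes.

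Ltb, a subunit of membrane lymphotoxin made by lymphocytes, had 8.51, 8.46, 7.52 and 7.71 in GEM/anti-CD40 Ab tumors, 7.67, 8.02, 7.06 and 8.44 in anti-CD40 Ab tumors, 7.09, 7.14, 7.08 and 7.38 in GEM tumors, and 7.57, 7.51, 7.14 and 8.27 in control tumors. The GEM tumors held 3 of the 5 lowest values and were all below the GEM/anti-CD40 Ab tumors, by 0.88 in mean (SE 0.22, limma adjusted p = 0.237). GEM tumors differed from control by -0.45 (SE 0.20, adjusted p = 0.852) and overlapped with them, and the difference was -0.23 without control replicate 4, the highest control tumor. Lta, the soluble lymphotoxin, and Tnfsf14 (LIGHT) had main effects of anti-CD40 Ab of -0.01 and 0.08.

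Of the receptors for these ligands, Tnfrsf1b (TNFR2), found mostly on leukocytes and endothelium, had 8.59, 8.15, 8.08 and 7.92 in GEM/anti-CD40 Ab tumors, 7.72, 7.72, 7.58 and 8.09 in anti-CD40 Ab tumors, 7.45, 7.74, 7.53 and 7.40 in GEM tumors, and 7.89, 7.43, 7.54 and 7.73 in control tumors. The GEM/anti-CD40 Ab tumors were above all GEM and all control tumors and overlapped with anti-CD40 Ab replicate 4. They exceeded GEM tumors by 0.66 (SE 0.14, limma adjusted p = 0.201), the lowest p of any member in that comparison, and control tumors by 0.54 (SE 0.15, adjusted p = 0.439). The main effect of anti-CD40 Ab was 0.39 (SE 0.10, adjusted p = 0.105), while the second probe set of Tnfrsf1b gave 0.08 (adjusted p = 0.783).

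Tnfrsf14 (HVEM), the receptor of LIGHT, had 5.95, 5.69, 5.13 and 5.17 in GEM/anti-CD40 Ab tumors, 5.34, 4.68, 5.12 and 5.31 in anti-CD40 Ab tumors, 5.03, 4.86, 4.83 and 4.96 in GEM tumors, and 5.24, 4.89, 5.11 and 5.12 in control tumors. GEM/anti-CD40 Ab replicates 1 and 2 were above all other tumors, and replicates 3 and 4 lay within the ranges of the anti-CD40 Ab and control tumors. The difference from GEM was 0.57 (SE 0.17, limma adjusted p = 0.286). Tnfrsf1a (TNFR1), the death domain receptor of TNF that most cell types carry, and Ltbr, the lymphotoxin beta receptor, had main effects of anti-CD40 Ab of 0.11 (95% confidence interval -0.002 to 0.22) and -0.03 (95% confidence interval -0.16 to 0.11).

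Tnfsf13b encodes BAFF, a B cell survival factor made by myeloid cells. It had 7.22, 6.90, 6.40 and 6.30 in GEM/anti-CD40 Ab tumors, 6.13, 6.28, 6.03 and 6.53 in anti-CD40 Ab tumors, 5.96, 6.02, 5.97 and 5.94 in GEM tumors, and 6.56, 5.49, 5.56 and 6.34 in control tumors. Both groups given the antibody were above the narrow range of GEM tumors, whereas the control tumors split into a high and a low pair that spanned it. The difference of GEM/anti-CD40 Ab from GEM was 0.73 (SE 0.18, limma adjusted p = 0.237). The other 2 probe sets of Tnfsf13b were dim and gave main effects of anti-CD40 Ab of 0.02 and 0.04, against 0.49 for the representative one. Its receptors Tnfrsf13b (TACI), Tnfrsf13c (BAFF receptor) and Tnfrsf17 (BCMA), which mark B lineage cells, had main effects of -0.03, -0.02 and -0.10, and B cell markers averaged 4.70 to 4.93 in GEM/anti-CD40 Ab, 4.69 to 4.90 in anti-CD40 Ab, 4.79 to 4.82 in GEM and 4.66 to 4.94 in control tumors.

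The RANK ligand Tnfsf11, which drives osteoclast formation and acts on dendritic cells, had a main effect of anti-CD40 Ab of 0.12, and its receptor Tnfrsf11a (RANK) of -0.12. The soluble decoy receptor Tnfrsf11b (osteoprotegerin) varied widely within groups, with 6.47, 5.91, 8.01 and 5.83 in GEM/anti-CD40 Ab tumors, 7.11, 7.25, 5.47 and 6.20 in anti-CD40 Ab tumors, 6.10, 6.90, 6.09 and 5.68 in GEM tumors, and 5.85, 6.61, 5.70 and 5.23 in control tumors. Its groups overlapped, and the main effect of 0.51 for anti-CD40 Ab had a 95% confidence interval of -0.21 to 1.23.

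Among tissue receptors Tnfrsf19 (TROY), known from skin appendages and the nervous system, was the only member lower at an unadjusted p under 0.05 in the main effect of anti-CD40 Ab. It had 4.63, 5.06, 4.80 and 5.65 in GEM/anti-CD40 Ab tumors, 4.56, 4.95, 4.87 and 4.71 in anti-CD40 Ab tumors, 5.11, 5.63, 4.84 and 6.07 in GEM tumors, and 5.45, 6.43, 5.12 and 4.95 in control tumors. The highest value came from control replicate 2, an array with skin keratinocyte genes, and the anti-CD40 Ab tumors met the control tumors at 4.95. The main effect was -0.55 (SE 0.22, limma adjusted p = 0.313). The dimmest of the 3 probe sets of Tnfrsf19 gave -0.23 (adjusted p = 0.0692) and the remaining one -0.16 (adjusted p = 0.343). Tnfrsf12a (Fn14), the TWEAK receptor, Ngfr, the low-affinity neurotrophin receptor, and Eda, the ectodysplasin of hair and gland development, had main effects of 0.04, -0.14 and 0.00. Tnfsf13os had -0.05, and its GEM main effect was -0.09 (SE 0.06, adjusted p = 0.927), with values of 4.74 to 5.05 in GEM/anti-CD40 Ab, 4.84 to 4.98 in anti-CD40 Ab, 4.77 to 5.08 in GEM and 4.86 to 5.03 in control tumors.

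Whether the effect of anti-CD40 Ab was larger in the presence of GEM was tested by the interaction term over all 16 arrays. No member passed it, as was so for all genes (0%), and 4 of 37 members had a positive term at an unadjusted p under 0.05, against 2.81% of genes. These were Tnfrsf1b with 0.53 (SE 0.20), Fas with 0.70 (SE 0.29), Tnfrsf14 with 0.54 (SE 0.24) and Tnfsf8 with 0.23 (SE 0.10), each with a limma adjusted p of 0.890. The term was above 0 for 31 of 37 members, against 51.9% of genes, with a median of 0.17 in the members and 0.01 in all genes. The number of members with a positive term at an unadjusted p under 0.05 depended on single arrays. It was 1 of 37 (2.7%) without GEM/anti-CD40 Ab replicate 2, anti-CD40 Ab replicate 3 or control replicate 4. The shares of genes there were 2.23%, 2.02% and 2.91%, so that count was near the share over all genes. The number was 2 without any one of GEM/anti-CD40 Ab replicate 1, anti-CD40 Ab replicate 2, GEM replicates 2 and 4 and control replicate 1. The shares of genes there were 2.48% to 3.29%. Without GEM/anti-CD40 Ab replicate 3 it was 6, against 4.45% of genes.

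Downstream of these receptors, the TRAF adaptors, the caspase-8 complex and the NF-kappa B proteins were followed in a list of 28 genes, of which 24 were measured. In the main effect of anti-CD40 Ab 0 of 24 passed the adjusted test, 12 of 24 had an unadjusted p under 0.05 in either direction, against 15% of genes, and the median was 0.09. The 4 lowest p belonged to Casp8, the initiator caspase of death receptors, with 0.19 (SE 0.04, limma adjusted p = 0.0559), Cflar, its inhibitor, with 0.27 (SE 0.06, adjusted p = 0.0592), Birc3, a ubiquitin ligase that TRAF proteins recruit, with 0.23 (SE 0.07, adjusted p = 0.151), and Nfkbia, the NF-kappa B inhibitor, with 0.23 (SE 0.07, adjusted p = 0.153).

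GEM/anti-CD40 Ab against GEM gave 12 of 24 genes of that list at an unadjusted p under 0.05, against 12.8% of genes, with a median of 0.17 and 0 of 24 past the adjusted test. The lowest p were those of Nfkb2 with 0.40 (SE 0.07), Relb with 0.42 (SE 0.10), Nfkbie with 0.77 (SE 0.19) and Tnfaip3 with 0.34 (SE 0.09), whose limma adjusted p lay at 0.197 to 0.237. Nfkb2 and Relb form the NF-kappa B dimer of the noncanonical pathway, and Nfkbie and Tnfaip3 restrain the canonical one. The mean level over the list was 8.89 to 9.14 in GEM/anti-CD40 Ab tumors and 8.78 to 8.83 in GEM tumors, without overlap. Anti-CD40 Ab alone against control gave 2 of 24 at an unadjusted p under 0.05, both higher, against 3.52% of genes higher. The median was 0.02, with Nfkb2 at 0.01 and Relb at 0.035. GEM/anti-CD40 Ab against anti-CD40 Ab gave 7 of 24, all higher, against 2.19% of genes higher, with a median of 0.12. For the main effect of GEM these were 8 of 24, against 5.53% of genes, and 0.07. In each of these comparisons 0 of 24 passed the adjusted test.

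Markers of several cell types, T cells, macrophages and endothelium among them, were higher in the same tumors for most genes of their lists, whereas those of B cells and dendritic cells were mixed. The mean of 10 T cell markers was 5.46 to 6.60 in GEM/anti-CD40 Ab, 5.66 to 6.75 in anti-CD40 Ab, 5.15 to 5.31 in GEM and 5.31 to 6.00 in control tumors. For the main effect of anti-CD40 Ab 6 of 10 markers had an unadjusted p under 0.05, all higher, against 7.53% of genes higher. In either direction the share was 15% of genes, and both shares apply to the marker counts that follow. Of the 10, 8 were above 0, while Cd4 was at -0.04 and Cd8a at -0.03. The 8 macrophage markers averaged 8.90 to 9.95, 8.77 to 9.44, 8.41 to 9.09 and 8.48 to 9.17 in the same order of groups. Of these, 5 of 8 had an unadjusted p under 0.05, all higher, and 1 of 8 passed the adjusted test. The 1 that passed was Itgam (0.96, SE 0.18, limma adjusted p = 0.0398). It encodes CD11b, by which the study gated granulocytic myeloid cells as well as macrophages. The 6 endothelial markers averaged 6.57 to 7.43, 6.34 to 7.18, 6.13 to 6.59 and 6.03 to 6.57, with 5 of 6 at an unadjusted p under 0.05, all higher. Of 6 dendritic cell markers, 4 were below 0, among them Flt3 at -0.17 (SE 0.05, limma adjusted p = 0.117) and Xcr1 at -0.24 (SE 0.08, adjusted p = 0.230), while Ccr7 was at 0.61 (SE 0.18, adjusted p = 0.163), and the median was -0.02. Of 5 B cell markers, 3 were below 0, with a median of -0.005 and 1 of 5 at an unadjusted p under 0.05. Granulocyte markers were above 0 for 4 of 5, with 3 of 5 at an unadjusted p under 0.05 in either direction. For NK cells these counts were 4 of 5 and 2 of 5, for fibroblasts 6 of 8 and 2 of 8. Plasma cell markers gave 4 of 4 and 0 of 4, skeletal muscle 5 of 8 and 0 of 8. Ductal tumor epithelium gave 1 of 7 and 0 of 7, skin keratinocytes 0 of 8 and 0 of 8.

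Within the GEM/anti-CD40 Ab group, replicates 1 and 2 had the highest T cell means (6.60 and 6.18, against 5.70 and 5.46 in replicates 3 and 4) and macrophage means (9.95 and 9.52, against 8.90 and 9.31). These 2 tumors were also the highest of their group for Fas, Fasl, Tnfsf10, Tnf, Ltb, Tnfrsf1b, Tnfrsf14, Tnfrsf18 and Tnfsf13b, but not for Tnfrsf22 or Tnfrsf23, which were highest in replicates 3 and 4, and for Tnfrsf9 replicate 3 exceeded replicate 2. The part of these cell types in the changes of the members was not tested.

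**Figure D4:**
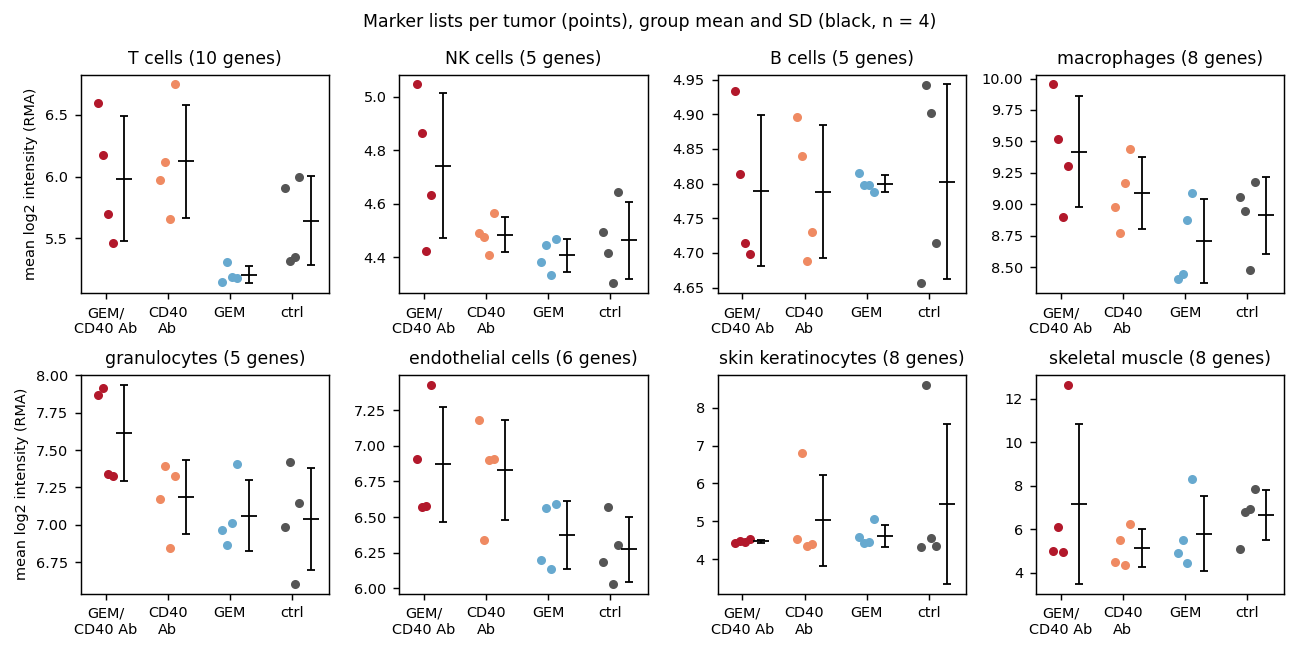
Mean log2 intensity (vertical axis, a scale of its own in each panel) over the measured genes of 8 marker lists in each tumor (points), with group mean ± SD (black, n = 4) for GEM/anti-CD40 Ab, anti-CD40 Ab, GEM and control tumors from left to right. T cell markers of all 4 GEM tumors lie at or below 5.31, and muscle markers reach 12.6 in 1 GEM/anti-CD40 Ab tumor.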

How the data were processed

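Per the labels and the study's methods, the authors hybridised 16 RNA samples of whole tumors, of which GEM replicates 3 and 4 share an animal number, to Affymetrix mouse arrays and deposited log2 values after RMA, a method of background correction, normalization between arrays and summary of the probes of each set. Its version is not given in the sources used here. Depth has no meaning for arrays, and the 4 arrays per group limit the precision.

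Groups and replicates follow the labels. The 45037 probe sets tested are the 45101 deposited less 64 array controls, with no other filter. Genes were named through the platform annotation given with the files: 34945 probe sets had 1 symbol, 932 several and 9160 none listed. Pairs of groups were compared on their 8 arrays, and main effects and the interaction on all 16, with limma 3.58.1 (R 4.3.3, lmFit and eBayes, no covariate, two-sided) and Benjamini-Hochberg adjustment over all probe sets. Exact permutation tests were two-sided on group means. The fits were tested on simulated data.

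Values per tumor are given for members that passed, for the 6 lowest unadjusted p in each pairwise comparison and main effect, and for direct ligand or receptor partners. Tnfrsf11b was added to these after its values were seen, as were the counts of members at an unadjusted p with arrays left out and the alternatives for the interaction of single members and for Tnfrsf9 in GEM against control. The members and lists were chosen with earlier results of these data known. Alternatives were all 16 arrays in each fit, a filter at the median intensity, scaling to the 75th percentile, quantile normalization, a trended and robust variance prior, the mean of a gene's probe sets, no cross-hybridizing (_x_at) probe sets, a replicate block, GEM replicates 3 and 4 averaged, arrays left out, and an added log2 change of at least 1.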

Additional observations from a re-analysis of the deposited data

Results flagged for a closer look

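In 3 of the 64 sets of 4 tumors examined (16 members in each of 4 groups), 1 tumor lay far from the others of its group by Dixon's criterion, and chance alone flags about 1 in 20. Tnfrsf23 was 7.69 in GEM/anti-CD40 Ab replicate 2, below the 7.92 to 7.96 of the other 3 tumors. Tnfrsf18 was 6.25 in GEM replicate 2, above 5.94 to 5.99. Tnfsf13os was 4.86 in control replicate 1, below 5.01 to 5.03.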

How the results depend on the processing

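The log2 changes of the 6 members with the lowest p in each pairwise comparison and main effect, and of the 4 members named for the interaction, kept their direction under every alternative run. That of Tnfrsf9 in GEM against control, 0.03, ranged from -0.055 to 0.185 with 1 array left out, and was -0.015 without the 3 arrays with skin or muscle genes. The number of members called for the main effect of anti-CD40 Ab was 3 (Tnfrsf9, Tnfrsf22 and Tnfrsf23) with a filter that removed probe sets below the median intensity. It was 0 with scaling to the 75th percentile, with the replicate block, with GEM replicates 3 and 4 averaged, without the 3 arrays with skin or muscle genes, and with a log2 change of at least 1 added. It ranged from 0 to 3 with 1 array left out. In all other comparisons it stayed at 0 under every alternative run. The adjusted p of Tnfrsf9 was 0.0191 to 0.0767 over 9 alternatives other than single arrays left out, passing in 5. Leaving out dim probe sets kept 20 of the 37 members. Their median log2 change was then 0.22 for the main effect of anti-CD40 Ab and 0.13 for anti-CD40 Ab against control. GEM/anti-CD40 Ab gave 0.30 against control and 0.35 against GEM. The median over all genes was not computed with this filter, so these values have no such median beside them. The median of anti-CD40 Ab against control was -0.005 with scaling to the 75th percentile, and that of the main effect of GEM, near 0, ranged from -0.03 to 0.03 with 1 array left out. The cause was not tested. The replicate block gave Tnfrsf9 an adjusted p of 0.0522 and called 54 probe sets instead of 175. Whether equal replicate numbers pair the tumors is not stated by the labels, and the correlations do not settle it. Of 24 pairs of tumors with equal number, 11 had deviations from their group means correlated over 0.1 (range -0.29 to 0.34). Pairs of unequal number were not computed for comparison. With 175 probe sets called in the main effect, the count was 373 of the brighter probe sets with dim ones left out, and 7 to 701 with 1 array left out. Dim signals limit what could be seen in the 17 members below the median intensity.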
